A study of Schizosaccharomyces pombe with 3 samples.

Results

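A set of 10 nuclear genes for the last steps of the respiratory chain were followed in fission yeast cells whose RNA polymerase II (RNAPII) elongates slowly. They are 10 of the 7049 genes in the deposited table and were chosen by identifier: 6 subunits of complex III, namely *rip1* (SPBC16H5.06), *cyt1* (SPBC29A3.18), *qcr1* (SPBP23A10.15c), *qcr2* (SPCC613.10), *qcr7* (SPCC737.02c) and *qcr8* (SPAC1782.07), the cytochrome c gene *cyc1* (SPCC191.07), and 3 subunits of complex IV, *cox4* (SPAC1296.02), *cox5* (SPCC338.10c) and SPCC1739.09c. The last of these was listed as *cox6*, but the RefSeq annotation names it *cox13*, cytochrome c oxidase subunit VIa, and gives the name *cox6* to another gene, SPAC1B2.04, which encodes subunit VI. SPCC1739.09c is called *cox13* here, and SPAC1B2.04 is counted with the other subunits. The annotated products of all 10 genes fit the label, with the qualification that *qcr1* is annotated as the beta subunit of the mitochondrial processing peptidase (MPP). Other known subunits of both complexes are described separately at the end.

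The RNA came from 3 strains of *Schizosaccharomyces pombe*. The wild type (FBY2323), 1 library, is the parent, and slow #1 (FBY2324) and slow #2 (FBY2325) are independent clones made from it, 1 library each, that carry the *rpb1* (N494D) mutation in the catalytic subunit of RNAPII. All 3 strains are h- and share the deletions fex1_delta and fex2_delta and the auxotrophic alleles ade6-M216 and leu1-32, together with ura4-D18 and his3-D1, so the wild type is itself a multiply mutant laboratory strain. Cells grew at 30 °C in EMM, a defined medium, with adenine, histidine, leucine and uracil added, and were taken at an optical density of 0.5. Total RNA was depleted of ribosomal RNA and sequenced in paired, strand-specific libraries.

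Complex III passes electrons from ubiquinol to cytochrome c, and complex IV passes them from cytochrome c to oxygen. Both complexes pump or release protons across the inner mitochondrial membrane, and the ATP synthase uses that gradient. Their catalytic cores are partly encoded in the mitochondrial genome (cytochrome b of complex III and the central subunits of complex IV), whereas the other subunits are nuclear genes transcribed by RNAPII, translated in the cytosol and imported. Fission yeast lacks the large proton-pumping complex I and feeds ubiquinol through complex II and single-subunit dehydrogenases.

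The promoters of respiratory genes in yeasts often hold CCAAT boxes, which are bound by the Php2, Php3 and Php5 proteins in fission yeast, with Php4 as a repressor that joins them under iron starvation. The letters CCAAT were searched on both strands of the 250 bases before each RefSeq gene start. They were found in 8 of the 10 genes and in 35.3% of 5112 promoters, and they were absent from this window of *rip1* and *cox13*. The longer form CCAATNA, which contains the first, was found in 4 of the 10 (*cyt1*, *qcr7*, *qcr8* and *cyc1*) and in 10.7% of promoters. The form ACCAAT, which also overlaps CCAAT, was found in 3 of the 10 (*qcr1*, *qcr8* and *cyc1*) and in 13.4%. The 4 sites of the longer form are shown on the strand of the gene, with CCAAT or its complement ATTGG in capitals, because they include *qcr7*, the gene that was lowest in the slow clones relative to the wild type, and *cyt1* and *cyc1*, which hardly moved. Coordinates are those of the RefSeq build ASM294v3.
cyt1, chrII:2073166-2073194, + strand: gattcctgtatgCCAATtatcgtcgggaa
qcr7, chrIII:1888062-1888090, - strand: accgaaggattcATTGGcatactataggg
qcr8, chrI:4767013-4767041, + strand: gtctgaattattATTGGtctagcagaccc
cyc1, chrIII:1714545-1714573, + strand: agagctcatgaaCCAATgaaataagggcg

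The sites lie 53, 24, 26 and 60 bases before the RefSeq start of *cyt1*, *qcr7*, *qcr8* and *cyc1*, in that order. The row of *qcr7* in the deposited table begins farther upstream than the RefSeq gene, so its site falls inside the counted row. A match of letters is a description of the window and not a measurement of binding.

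The gene with the highest value relative to the wild type, *cox13*, is also the one with the most exons. Its deposited row has 6 exons, and 171 of the 5113 protein-coding rows have 6 or more. Of the other members *qcr8* has 4 exons, *cyt1* and *cox4* have 2 each, and the remaining 6 have 1. The 5 introns of *cox13*, all inside its coding sequence on the minus strand of chromosome III, are short, and they are shown because they set this gene apart from the other members. Capitals mark the GT and AG at the intron ends.
cox13 intron 1, chrIII:2047125-2047172: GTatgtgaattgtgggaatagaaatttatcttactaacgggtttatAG
cox13 intron 2, chrIII:2047050-2047099: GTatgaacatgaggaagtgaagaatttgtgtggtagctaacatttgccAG
cox13 intron 3, chrIII:2046952-2046999: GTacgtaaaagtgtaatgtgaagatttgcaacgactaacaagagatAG
cox13 intron 4, chrIII:2046845-2046896: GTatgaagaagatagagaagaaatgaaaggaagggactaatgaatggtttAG
cox13 intron 5, chrIII:2046701-2046784: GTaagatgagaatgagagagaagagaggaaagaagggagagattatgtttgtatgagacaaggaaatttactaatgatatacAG

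The introns are 48, 50, 48, 52 and 84 bases long. The table counts fragments per gene, so spliced and unspliced RNA of *cox13* were not separated. Whether the number of exons bears on the level of *cox13* was not tested. The paper reported no enrichment of genes with introns among those that rose or fell in the slow mutant.

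Cytochrome c and cytochrome c1, the electron carriers made from *cyc1* and *cyt1*, hold heme bound through a pair of cysteines followed by a histidine. The codons of these residues are printed in capitals because they are the part that the carriers share. In *cyc1* they are codons 19, 22 and 23 of 109, and in *cyt1* codons 102, 105 and 106 of 307.
cyc1, chrIII:1714789-1714803, + strand: TGCgctcaaTGTCAT
cyt1, chrII:2073710-2073724, + strand: TGTtctgccTGCCAT

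The libraries held between 30674459 counts, in slow #2, and 40746838, in slow #1, with 31803128 for the wild type. All 10 genes passed the expression filter of edgeR, which kept 6418 genes, with counts between 2821 and 27108 in every library. Counting error alone therefore gave a standard error of at most 0.0373 on the log2 difference between any clone and the wild type, well under the spread between the clones for some genes below. The 10 genes took 0.341% of wild-type counts, 0.362% of those of slow #1 and 0.342% of those of slow #2. Rows of the mitochondrial genome took 3.38%, 5.53% and 5.66%. A fit without these rows and those of structural RNAs gave the 10 genes a median log2 fold change of 0.12, as did the fit with them. Levels are given as CPM, the counts of a gene relative to library size after TMM scaling in edgeR, and log2 differences per clone carry a prior count of 2. The labels were checked against the deleted genes. *ura4* had 0 counts in every library, but *fex1* had 17.2, 10.3 and 8.13 CPM, *fex2* 22.3, 14.0 and 18.9, and *his3* 16.0, 14.3 and 18.5 in the wild type, slow #1 and slow #2, so reads remained in rows labelled as deleted, and this was not examined further. The *rpb1* gene was at 792, 788 and 837 CPM, which does not check the point mutation. Genes of both mating types, M (that of h- cells) and P, were also read, in the same order of libraries. Among those of M, *mat1-Mc* had 2, 0 and 0 counts and *mat1-Mi* had 61, 60 and 28. The M-factor genes were at 45.2, 298 and 367 CPM (*mfm1*), 173, 352 and 297 (*mfm2*) and 2.84, 18.3 and 19.3 (*mfm3*). Of those of P, *map2* was at 34.2, 41.6 and 44.2 CPM and *map3* at 23.9, 19.5 and 17.5. These reads do not settle the h- label.

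Most of the 10 genes were close to the wild type in both clones, and the exceptions were 1 higher gene and 1 lower gene. *cox13* stood at 2.06 times its wild-type level and *qcr7* at 0.586 times, while the other 8 stayed within 1.5-fold of the wild type in both clones, as did 72.1% of all genes tested. Genes were called where the FDR was under 0.01 and the fold change exceeded 1.5. The quasi-likelihood test of edgeR called 0 of the 10 up and 0 down. Over all genes tested it called 0.312% up and 0.390% down. At an unadjusted p under 0.05, 1 member was higher (*cox13*) and 1 lower (*qcr7*), as against 35.4% of all genes. DESeq2 with the same thresholds called 1 up and 1 down, the same pair, with 5.00% of all genes up and 3.65% down. At an FDR under 0.05, edgeR also called 1 up and 1 down, beside 6.79% and 5.59% of all genes. The wild type has a single library, which is taken to vary as much as the clones do, and this leaves the test 1 residual degree of freedom. Nothing in the sources says that the libraries are more than 1 culture per strain, so the only replication is that of these 2 clones. For each gene, edgeR combined their spread with a variance estimated over all genes. That shared part had a weight of 5.25 prior degrees of freedom, beside 1 from the gene itself. The edgeR p-values therefore rest mostly on the spread between the clones pooled over genes, and less on that of each gene.

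**Figure D1:**
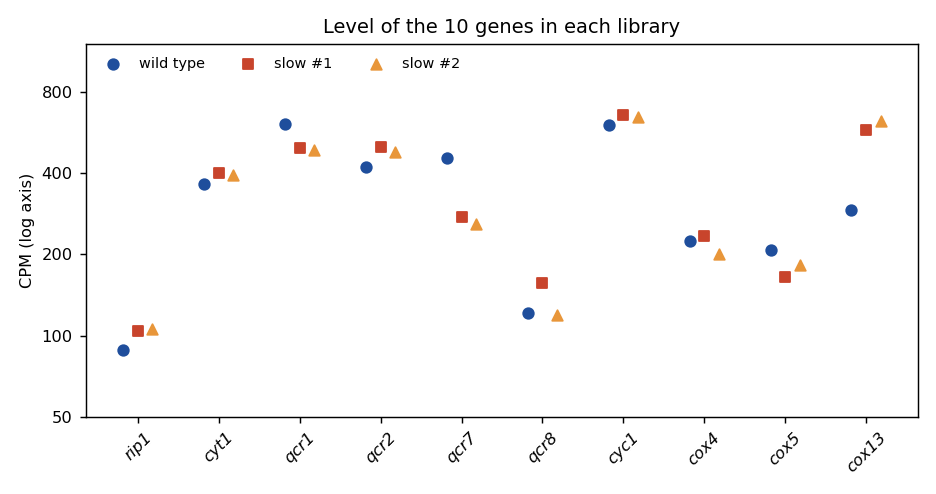
Level of each of the 10 genes in each library, in CPM on a log axis, with a circle for the wild type, a square for slow #1 and a triangle for slow #2. *cox13* stands at 291 CPM in the wild type and at 575 and 623 in the clones, and *qcr7* at 456, 276 and 259, whereas the 3 points of *cyc1* lie between 602 and 655.

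Among the catalytic subunits of complex III, *cyt1* encodes cytochrome c1, which hands electrons to cytochrome c. It was at 365 CPM in the wild type, 399 for slow #1 and 393 for slow #2. Both clones lay above the wild type by a small amount, a log2 fold change of 0.12 (SE 0.132, adjusted p = 0.548 from edgeR), which did not pass. The Rieske iron-sulfur protein, encoded by *rip1*, takes electrons from ubiquinol. It was the least abundant of the 10 in every library, at 88.2, 104 and 106 CPM. Both clones were above the wild type, with a log2 fold change of 0.25 (SE 0.114, adjusted p = 0.169), also short of the threshold. The exons of *rip1* are covered over all 1298 bases by *ppa2*, which encodes a protein phosphatase catalytic subunit on the other strand. *ppa2* was read at 174, 204 and 215 CPM, and it was higher in both clones by log2 differences of 0.24 and 0.31, beside 0.24 and 0.27 for *rip1*. Reads were counted by strand, and whether any reads of *ppa2* were counted to *rip1* was not tested.

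The core proteins of complex III face the matrix and do not carry electrons. *qcr1* encodes the one that is annotated here as the beta subunit of the processing peptidase, which removes targeting sequences from imported proteins. It was at 609 CPM in the wild type, 497 for slow #1 and 488 for slow #2. Both clones were lower, by -0.30 and -0.32, and the fitted log2 fold change of -0.31 (SE 0.137) had an adjusted p of 0.165. The partner core protein gene, *qcr2*, went the other way without passing the test. It stood at 421, 500 and 478 CPM, with a log2 fold change of 0.21 (SE 0.138, adjusted p = 0.312). Per exon length, *qcr1* was 1.09 times as high as *qcr2* in the wild type and 0.750 and 0.771 times as high in slow #1 and slow #2. The ratio itself was not tested.

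The small subunits *qcr7* and *qcr8* sit beside cytochrome b, where budding yeast Qcr7 and Qcr8 are needed early in assembly of the complex. *qcr7* was the lowest of the 10 genes relative to the wild type. Its counts were 14589 in the wild type, 11411 for slow #1 and 7769 for slow #2, or 456, 276 and 259 CPM. The clones were near each other and well below the wild type, at log2 differences of -0.73 and -0.82. The fitted log2 fold change was -0.77 (SE 0.129), 0.586 times the wild-type level, and the adjusted p was 0.02 in edgeR and 0.000384 in DESeq2. Over 9 alternative fits with a test, its adjusted p ranged from 0.000384 to 0.101 and the sign did not change. The deposited row of *qcr7* shares 66 exon bases on the same strand with *ima1*, a gene that was slightly higher in the clones (89.0, 114 and 119 CPM), and pairs that overlap both rows may be missing from the counts of both.

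*qcr8* showed the widest spread between the clones. It was at 122 CPM in the wild type, 156 for slow #1 and 119 for slow #2, so the clones lay on either side of the wild type. The 2 clones differed by a log2 value of -0.39 (slow #2 minus slow #1), more than either differed from the wild type, and the counting error of that difference was 0.0301. The fitted log2 fold change of 0.18 (SE 0.179, adjusted p = 0.511) thus describes neither clone. In exon-length units *qcr7* was 1.94 times as high as *qcr8* in the wild type, 0.914 times for slow #1 and 1.13 times for slow #2. The messages of this pair were nearer to each other in the clones than in the wild type.

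Cytochrome c, the soluble carrier between the complexes, is encoded by *cyc1*. It had the highest CPM of the 10 genes in both clones and was just below *qcr1* in the wild type, at 602 CPM in the wild type, 655 for slow #1 and 646 for slow #2. Both clones exceeded the wild type by little, with a log2 fold change of 0.11 (SE 0.144, adjusted p = 0.613). Per exon length *cyc1* was 2.04 times as high as *cyt1* in the wild type and 2.03 times as high in each clone, so that the messages of the electron donor and acceptor kept nearly the same proportion in the 3 libraries.

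**Figure D2:**
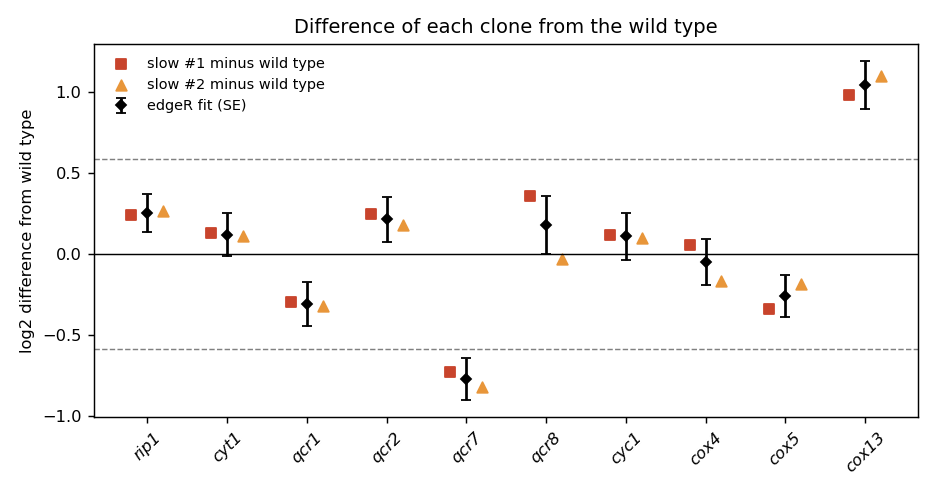
Log2 difference of each clone from the wild type for the 10 genes, with a square for slow #1, a triangle for slow #2, and a black diamond for the edgeR fit with its SE. Dashed lines mark a 1.5-fold difference, which only *cox13* (0.98 and 1.10) and *qcr7* (-0.73 and -0.82) exceed in either clone, and the clones of *qcr8* and *cox4* fall on both sides of 0.

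In complex IV, *cox13* encodes subunit VIa, a peripheral subunit that in other eukaryotes adjusts the activity of the enzyme. Its counts were 9311 in the wild type, 23799 for slow #1 and 18678 for slow #2, or 291, 575 and 623 CPM. Both clones were far above the wild type and close to each other, 1.98-fold and 2.14-fold higher. The fitted log2 fold change was 1.04 (SE 0.149), and the adjusted p was 0.0142 in edgeR, which missed the 0.01 threshold, and 4.28e-07 in DESeq2. Across the 9 alternative fits the adjusted p ran from 4.28e-07 to 0.21 and the log2 fold change, with 2 further fits that each leave out a clone, from 0.85 to 1.10. *cox13* alone made up 8.59% of the counts of the 10 genes in the wild type, 16.2% for slow #1 and 17.8% for slow #2. No other row overlaps it.

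The other complex IV members did not share this. *cox4*, subunit IV, was at 225, 234 and 200 CPM in the wild type, slow #1 and slow #2. The clones straddled the wild type at log2 differences of 0.06 and -0.17, and the fitted value of -0.05 (SE 0.144, adjusted p = 0.832) was the nearest to 0 of the 10. *cox5*, subunit V, was at 208, 164 and 183 CPM. Both clones were lower, slow #1 more so, and the log2 fold change of -0.26 (SE 0.129, adjusted p = 0.208) did not pass. Per exon length, *cox13* was 1.91 times as high as *cox5* in the wild type and 4.76 and 4.64 times as high in the clones, and its ratio to *cox4* was 1.38, 2.62 and 3.31. *cox4* shares 138 exon bases with *sxa2* on the other strand, and *cox5* shares 66 with SPNCRNA.1189 on the same strand, at 3.28, 3.16 and 1.60 CPM.

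**Figure D3:**
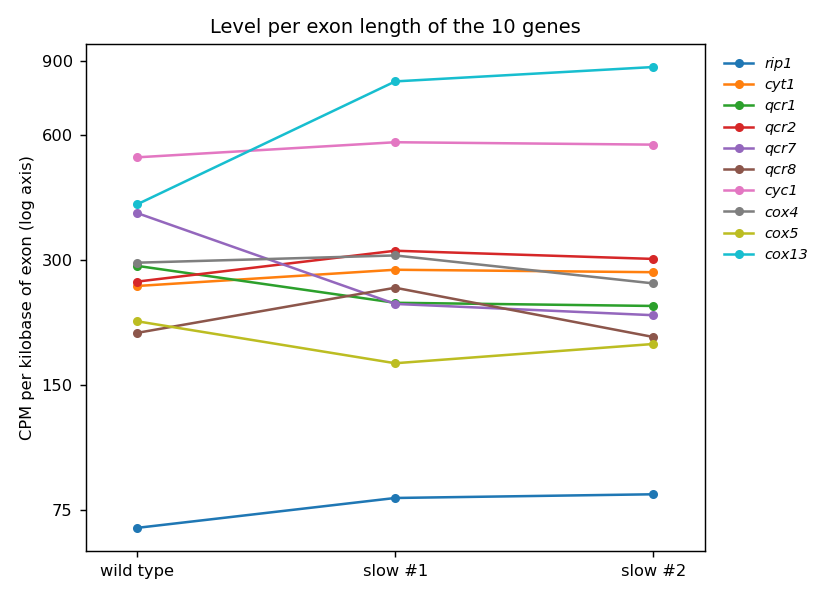
Level of the 10 genes per kilobase of exon, on a log axis, with 1 line per gene across the wild type, slow #1 and slow #2. *cyc1* is highest in the wild type at 529 and *cox13* is highest in the clones at 805 and 872, while *qcr7* goes from 388 to 235 and 221.

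By exon length, which allows levels to be compared between genes, *cyc1* led in the wild type at 529 CPM per kilobase, followed by *cox13* at 408, *qcr7* at 388, *cox4* at 295, *qcr1* at 290, *qcr2* at 266, *cyt1* at 259, *cox5* at 213, *qcr8* slightly below *cox5*, and *rip1* at 67.9. The places from *cox4* to *cyt1* differ by less than the spread that *cox4* shows between the clones (307 and 263), so their order is not resolved. The same holds for *cox13* and *qcr7* in the wild type. In the clones *cox13* was first at 805 and 872 and *cyc1* second at 575 and 567. *qcr2* followed at 315 and 301, but its place relative to *cox4* is not resolved. *qcr7*, which was near *cox13* in the wild type, was near *qcr1* in the clones, at 235 and 221 beside 236 and 232. The order of *qcr7* and *qcr1* in the clones is not resolved either. *rip1* remained last, at 80.1 and 81.8. These levels count RNA and give no measure of the proteins, and fewer cells with a transcript and less transcript per cell cannot be told apart in bulk RNA.

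Taking direction alone, 5 of the 10 genes (*rip1*, *cyt1*, *qcr2*, *cyc1* and *cox13*) were higher than the wild type in both clones, as were 42.7% of all genes tested. A further 3 (*qcr1*, *qcr7* and *cox5*) were lower in both, as were 42.6% of all genes. The median log2 fold change of the 10 was 0.12 and that of all genes 0.01. The median size of the difference between the clones was 0.078 for the 10 genes and 0.132 for all genes. All genes tested include rows with far fewer counts than the 10, and no comparison at like counts was made. The clones are thus close for most of these genes, and *qcr8* and *cox4* are the 2 for which the clone difference exceeded both differences from the wild type. The reference genes *nda2*, *act1* and *fba1*, used as a scale in place of TMM, shift the median of all genes by -0.18. On that scale the median of the 10 becomes -0.07, *cyt1* and *cyc1* turn slightly lower (-0.06 and -0.07), and 4 of the 10 have a positive fold change in place of 6. The directions of *cox13* and *qcr7* do not turn.

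Further known subunits outside the 10 were read next, all from lists matched by symbol. Of 9 complex IV symbols listed, 3 matched no single row, so the set may not be complete. A further 1, *cox13*, was left out of this list and is described above as a member. In complex III these were *qcr6*, *qcr9* and *qcr10*, and in complex IV *cox6*, *cox7*, *cox8*, *cox9* and *cox12*. All 8 were higher in both clones than in the wild type, as were 42.7% of all genes tested. Their median log2 fold change was 0.75, beside 0.12 for the 10. None passed edgeR at an FDR under 0.01, with an unadjusted p under 0.05 for 6 higher and 0 lower genes, and DESeq2 called 3 up and 0 down. Over all genes, 35.4% had an unadjusted edgeR p under 0.05, and DESeq2 called 5.00% up and 3.65% down. *cox6* (SPAC1B2.04) was at 274 CPM in the wild type, 698 for slow #1 and 734 for slow #2, a log2 fold change of 1.39 (SE 0.152) and adjusted p-values of 0.0102 in edgeR and 8.84e-13 in DESeq2. *qcr9*, a small membrane subunit, was at 64.7, 115 and 149 CPM (1.03 on the log2 scale, adjusted p = 6.81e-05 from DESeq2). *cox12*, subunit VIb, was at 52.2, 78.6 and 115 CPM (0.89, adjusted p = 0.0041 from DESeq2). Over the 18 nuclear genes together, 13 were higher in both clones and the median was 0.27. Among these 18, the 10 members thus hold all of the genes that were lower in both clones. They were chosen by name from a longer list, and the difference between the 10 and the 8 was not tested.

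The mitochondrial genome is transcribed by its own polymerase. Of the subunits it encodes, *cob* (cytochrome b), *cox1* and *cox2* were identified in the table by their exon lengths, and *cox3* was not analysed here. *cob* was at 1959 CPM in the wild type, 2322 for slow #1 and 1812 for slow #2, and *cox2* at 5786, 7293 and 5397, so the clones lay on either side of the wild type for both. *cox1* was at 1921, 2852 and 2614 CPM, higher in both clones, with a log2 fold change of 0.51 and an adjusted p of 0.133 from edgeR. None of the 3 was called by edgeR or DESeq2, and *cox1* was the one with an unadjusted edgeR p under 0.05.

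Complex II and the dehydrogenases supply the ubiquinol that complex III oxidizes. Of 7 such genes edgeR called 0, with an unadjusted p under 0.05 for 2 higher and 2 lower genes, against 35.4% of all genes. DESeq2 called 1 up and 2 down, with 5.00% of all genes up and 3.65% down. The higher one was *sdh2*, the iron-sulfur subunit of complex II, at 280, 587 and 641 CPM (1.13 on the log2 scale). The lower ones were *tim18*, listed as the membrane subunit *sdh4*, at 303, 144 and 153 CPM (-1.03), and the glycerol-3-phosphate dehydrogenase gene *gut2*, at 58.9, 37.0 and 32.2 CPM (-0.77). Subunits of complex II therefore stood on both sides of the wild type, like *cox13* and *qcr7* among the members. Of 14 nuclear ATP synthase genes DESeq2 called 6 up and 0 down, beside the same 5.00% and 3.65%, with a median of 0.46. EdgeR called 0, with an unadjusted p under 0.05 for 9 higher and 0 lower genes. The 6 called by DESeq2 were *atp18* (1.36), *atp15* (1.27), *atp19* (1.13), *atp20* (0.76), *atp16* (0.72) and *tim11* (0.65).

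Genes that build the complexes and their cofactors were read against the background of DESeq2, 5.00% of all genes up and 3.65% down, and of edgeR, 35.4% at an unadjusted p under 0.05. Of 30 assembly and heme attachment genes tested, edgeR called 0 (an unadjusted p under 0.05 for 9 higher and 7 lower genes) and DESeq2 called 3 up and 0 down, around a median of 0.02. These were *cbp4*, an assembly factor of complex III (0.76), and *cmc4* (0.78) and *cox16* (0.78), the latter an assembly factor of complex IV. Heme is the cofactor of *cyc1*, *cyt1*, cytochrome b and complex IV. Of 8 genes of heme synthesis 7 were lower in both clones, as were 42.6% of all genes, with a median of -0.30. At an unadjusted edgeR p under 0.05, 4 were lower and 0 higher. EdgeR called 0 of them and DESeq2 called 1 down. It was *hem2*, whose product joins aminolevulinate into porphobilinogen, at 334, 159 and 158 CPM, a log2 fold change of -1.08 (adjusted p = 0.0102 from edgeR and 1.63e-07 from DESeq2). The 13 genes of ubiquinone synthesis had a median of 0.05, and neither tool called any (an unadjusted edgeR p under 0.05 for 2 higher and 1 lower genes). The genes of the CCAAT-binding complex were not called either (1, *php3*, higher at an unadjusted edgeR p under 0.05), with log2 fold changes of -0.03 for *php2*, 0.36 for *php3*, 0.19 for *php4* and -0.23 for *php5*.

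**Figure D4:**
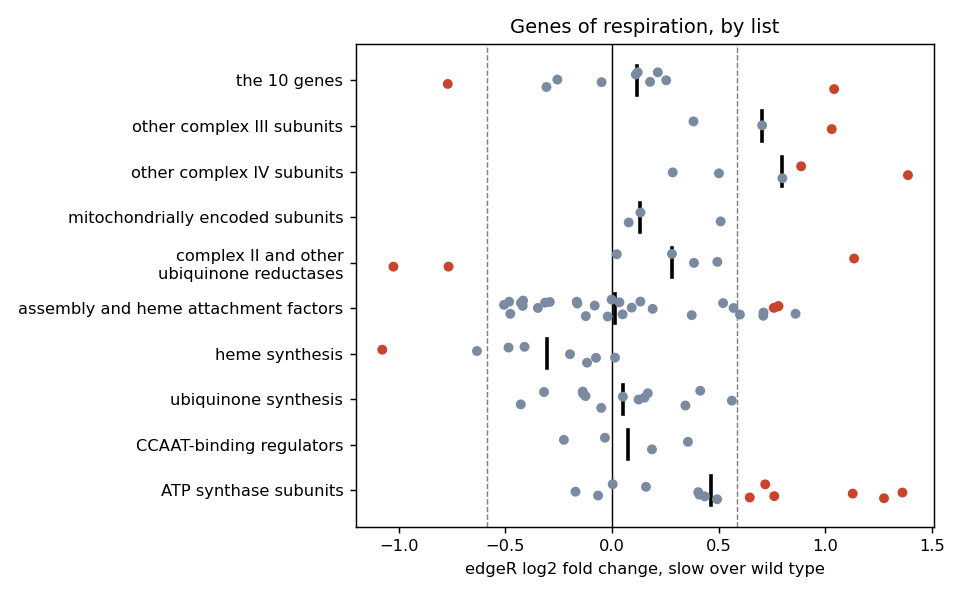
Fitted edgeR log2 fold change (slow over wild type) of each gene, by list, with 1 point per gene, a black bar at the median of the list, dashed lines at 1.5-fold and red points for genes called by DESeq2. The medians run from -0.30 for heme synthesis to 0.80 for the other complex IV subunits, and the 10 genes sit at 0.12 with red points only for *qcr7* and *cox13*.

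The subunits differ widely in size, and the shorter ones tended to be the higher ones when the 18 nuclear genes were pooled. The 8 others are mostly shorter than the members and had the higher median, so the pooled value includes that difference between the groups. Within the 8, the shortest, *cox9* (58 codons) and *cox7* (59), stood at 0.50 and 0.28. The longest of them, *cox6* (140) and *qcr6* (214), stood at 1.39 and 0.70, and no correlation within the 8 was computed. Spearman's rho between coding length and log2 fold change was -0.453 over the 18 genes, -0.127 over the 10 members and -0.183 over 5013 protein-coding genes. These are correlations across genes of the same 3 libraries, which are not independent, and they are given as descriptions. *cox13* and *qcr7*, the members that differed most from the wild type, are nearly the same length, with 130 and 137 codons. The largest members, *qcr1* (457 codons) and *qcr2* (426), had log2 fold changes of -0.31 and 0.21.

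**Figure D5:**
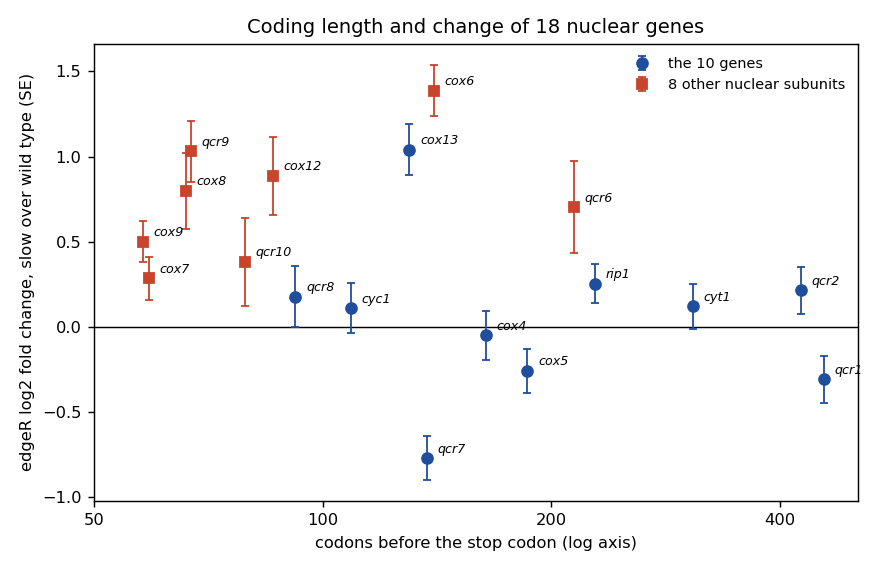
Coding length in codons (log axis) against the fitted edgeR log2 fold change with its SE, for the 10 genes (blue circles) and the 8 other nuclear subunits (red squares). The 8 others all lie above 0, and *cox13* with 130 codons and *qcr7* with 137 lie at 1.04 and -0.77 although their lengths are alike.

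The genes whose pair of differences from the wild type was nearest to that of *cox13* were sought among 777 protein-coding genes of mean CPM within 2-fold of it. They were *ret3*, a coatomer subunit gene (1.03 and 1.17 in slow #1 and slow #2), *mei2*, an RNA-binding protein gene of meiosis (0.88 and 1.10), and *mrpl28*, a mitochondrial ribosomal protein gene (0.87 and 1.14), at Euclidean distances of 0.092, 0.106 and 0.123 on the log2 scale. For *qcr7*, among 1273 genes, they were *rmt2*, a methyltransferase gene (-0.71 and -0.81), *vma7*, a subunit of the vacuolar ATPase (-0.70 and -0.81), and *spp41* (-0.69 and -0.78), at distances of 0.013, 0.032 and 0.053. With 3 libraries the likeness rests on 2 differences per gene. Of the remaining overlaps with annotated rows, *qcr8* shares 80 exon bases with *rex3* on the other strand and 64 with SPNCRNA.1023 on the same strand, and *qcr2* shares 66 with *sen54* on the same strand. *rex3* was at 105, 84.9 and 88.8 CPM and SPNCRNA.1023 at 22.6, 17.3 and 16.8, lower in both clones, while *qcr8* was higher in slow #1 alone.

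In the deposited table, which uses ASM294v2, *rip1* lies on chromosome II from 2288882 to 2290179, *cyt1* from 2073253 to 2074742 and *qcr1* from 2032842 to 2034943 of the same chromosome. On chromosome III are *qcr2* (96625 to 98210), *cox5* (1357740 to 1358712), *cyc1* (1714660 to 1715798), *qcr7* (1886995 to 1888168) and *cox13* (2046412 to 2047407). *cox4* (711238 to 712354) and *qcr8* (4767042 to 4767986) lie on chromosome I. The genes *rip1*, *qcr1*, *qcr7* and *cox13* are on the minus strand and the others on the plus strand. The genes that differed most, *cox13* and *qcr7*, are thus on the same chromosome and strand, as separate rows with no shared bases.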

How the data were processed

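Total RNA depleted of ribosomal RNA was sequenced from 1 wild-type and 2 *rpb1-N494D* libraries. Reads were trimmed by the authors with Trimmomatic 0.36 and aligned with STAR 2.5.1 to the ASM294v2 build, and pairs were counted by strand with featureCounts (version not given in the sources used here). Their own comparison used DESeq2 1.24. The deposited values are raw counts per gene, and the deposited gene lengths, in bases, are summed exon lengths. Reads shared by overlapping rows on one strand may be missing.

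The whole table was fitted in R 4.3.3 with edgeR 4.0.16 (filterByExpr, minimum count 10 and minimum total 15, TMM, quasi-likelihood test, Benjamini-Hochberg adjustment) and, as an alternative, DESeq2 1.42.0. The fit was tested on simulated data. A total of 6844 rows were matched to RefSeq locus tags of ASM294v3, which also gave all printed sequences. All members are named, with list genes called by either tool, the mitochondrial subunits, the CCAAT-binding genes, 3 nearest genes for the highest and the lowest member, and overlapping rows. Members and lists were chosen with earlier results of these data known. The symbols *ups1*, *abc1*, *cox24*, *dld1*, *atp10* and *inh1* were dropped from lists for their RefSeq products. The symbol *cox13* was dropped too, as RefSeq gives it to the member SPCC1739.09c, and *cox6* and the other subunits were named afterwards. Of the listed symbols, 3 of complex IV, 5 of assembly factors and 1 of the mitochondrial subunits matched no single row. Scaling, filters, thresholds and left-out clones were varied, and edgeR's robust option and TMM over all rows were added after seeing the data.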

Additional observations from a re-analysis of the deposited data

How the results depend on the processing

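The median log2 fold change of the 10 genes, 0.116, moved to 0.177 with upper-quartile factors, where *cox4* turned to 0.0129, and to -0.067 when scaled to *nda2*, *act1* and *fba1*, where *cyt1* turned to -0.062 and *cyc1* to -0.071; the causes were not tested. Leaving out each clone in turn gave 0.0311 to 0.125, the lower value without slow #1. Calls of members changed from 0 up and 0 down to 1 and 1 in DESeq2 and at an FDR under 0.05, and to 1 up without the low-count filter (*cox13*, adjusted p = 0.00626). RLE factors called 0 members and 0 genes, with 2205 genes at an unadjusted p under 0.05. Over all genes, the 20 up and 25 down became 321 and 234 in DESeq2, 127 and 129 without the filter, 4 and 11 without structural and mitochondrial rows, 18 and 39 on the reference-gene scale, and 59 and 72 with TMM factors from all rows, an alternative chosen after seeing the data. *cox13* and *qcr7* kept their sign in all 11 alternatives. No paired analysis was possible because the wild type has 1 library and its label carries no replicate number. Counting error of the 10 genes was small (SE of at most 0.0373 on the log2 scale), and the calls of *cox13* and *qcr7* depended on the tool and the threshold, and that of *cox13* also on the low-count filter.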
